A study of Mus musculus with 4 samples.

Results

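The translation initiation factor genes were taken as every symbol in the count table that begins with Eif and a digit from 1 to 6. The rule found 59 of 17194 symbols: 54 protein-coding genes and 5 processed pseudogenes. It takes in the initiation factors themselves, the kinases that phosphorylate eIF2 and the proteins that bind eIF4E. Eif4e1b, a further cap-binding gene, was not analysed here.

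The libraries hold polyadenylated RNA from primary mouse bone marrow-derived macrophages that had been in RANKL, the osteoclast-inducing cytokine, for 2 days. There were 2 libraries labelled siControl and 2 labelled siHells, from cells given an siRNA against Hells, a chromatin remodeller. RANKL was thus shared by all 4 libraries. The sources used here do not give the strain, sex or age of the mice, the siRNA sequences, or whether the libraries of a group came from separate cultures or animals. The spread behind each p-value is thus that of these libraries alone and may be technical.

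Hells stood at 29.346 and 29.995 CPM (counts scaled to library size) in siControl and at 15.2 and 14.6 CPM in siHells, a 1.99-fold fall. Total counts ranged from 48873635 to 55642819 per library. All 7 macrophage markers were present, and 6 of them rose and 1 fell. All 8 osteoclast markers fell, and their summed level was 8782 to 8820 CPM in siControl and 1337 to 1374 CPM in siHells. Of 8 stromal markers 7 rose, with sums of 1029 to 1051 CPM and 1731 to 1757 CPM. Of 7 neutrophil markers 6 were present and 4 fell (437 to 442 CPM and 352 to 373 CPM in sum), and of 5 dendritic cell markers 4 were present, of which 2 rose (Flt3 and Zbtb46) and 2 fell (Ciita and Itgax), with sums of 36.2 to 36.7 CPM and 8.89 to 9.74 CPM. No marker of the erythroid list, 1 of 5 of the B cell list and 1 of 6 of the T and NK cell list was in the table. The part of these shifts in the results below was not tested, and in bulk RNA fewer cells of a type and less RNA per cell cannot be told apart.

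Initiation is the step at which a ribosome is placed on the start codon of an mRNA. eIF4E binds the cap at the 5′ end, eIF4G holds it together with the helicase eIF4A, and eIF3 joins this assembly to the small ribosomal subunit, which already carries eIF1, eIF1A and the initiator tRNA bound to eIF2. The pathway is restrained at 2 classic points: 4E-BP proteins mask eIF4E unless the kinase complex mTORC1 phosphorylates them, and stress kinases phosphorylate eIF2 so that it blocks its own exchange factor, eIF2B.

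Most initiation factor genes that differed were lower in siHells. Of 57 members tested, 33 fell and 8 rose at an adjusted p under 0.05 (edgeR quasi-likelihood, Benjamini-Hochberg over the 15651 genes tested). All adjusted p-values below come from that fit unless another is named. Over all genes 29.5% fell and 29.0% rose. Because the protein-coding members are abundant, the same shares were taken over the 9681 genes whose mean log2 CPM reached 3, where 36.2% fell and 34.7% rose. Among the tested members 57.9% fell and 14.0% rose. With library totals in place of TMM scaling the split was 40 lower and 4 higher.

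The changes were small. The median log2 change of the 57 members (log2 fold change, siHells over siControl) was -0.16 against -0.00 over all genes, and the median absolute change was 0.19 against 0.34. The largest fall was 1.65-fold, in the pseudogene Eif4a-ps4, and the largest rise 1.39-fold. Among protein-coding members the largest fall was 1.53-fold (Eif2b3). Of the 33 falls, 18 were smaller than 1.2-fold. When edgeR tested against a change of 1.5-fold rather than 0, no member passed in either direction, where 7.00% of all genes were lower and 8.06% higher. At an unadjusted p under 0.05 that test named 1 member, Eif4a-ps4, as lower and 0 as higher. No other tool was run against 1.5-fold. The siHells libraries lay below both siControl libraries in 38 members (39.4% of all genes) and above both in 10 (39.1%).

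**Figure D1:**
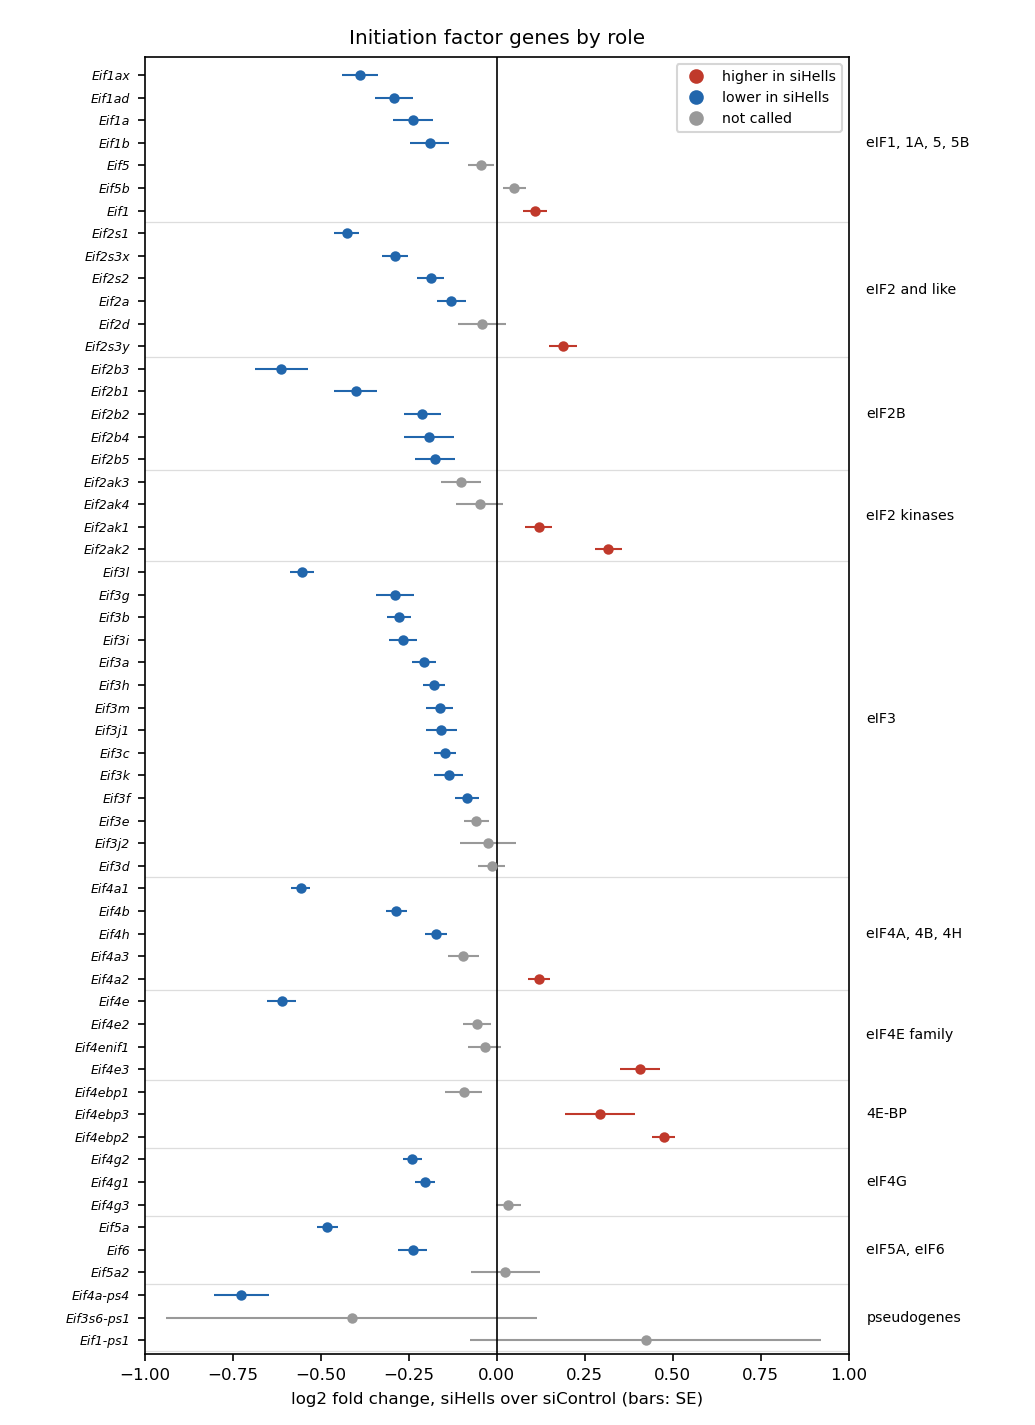
Log2 fold change, siHells over siControl, of the 57 tested initiation factor genes with standard errors, grouped by role. Blue marks the 33 lower members, red the 8 higher and grey the 16 not called; the blue points spread from -0.73 to -0.08 and the red ones from 0.11 to 0.47.

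Before any change, the genes were expressed at very different levels. Scaled to exon length, Eif5a and Eif4a1 led the siControl libraries at 227 and 214 CPM per kb of exon, followed by Eif4b (155) and Eif3h (152). The least expressed protein-coding members were Eif5a2 (2.44 CPM per kb), Eif2b3 (3.39), Eif2d (3.56) and Eif2ak4 (3.91). The first 6 places were held by the same 6 genes in siHells, with Eif3h above Eif4b.

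The cap-binding protein itself fell. Eif4e stood at 124 and 122 CPM in siControl and at 77.9 and 82.9 CPM in siHells. The groups lay far apart relative to the gap within each. The means were 123 ± 1.47 and 80.4 ± 3.56 CPM (SD, n = 2 each), a 1.53-fold fall with a log2 change of -0.61 (SE 0.042, adjusted p = 5.97e-09). The gene lies at chr3:138526179-138559696 of GRCm38, plus strand.

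Its relatives were not called lower. Eif4e3, an atypical cap-binding protein that lacks the usual tryptophan clamp around the cap, was at 31.7 and 29.9 CPM in siControl and 40.4 and 41.2 CPM in siHells. It rose 1.33-fold (log2 change 0.41, SE 0.057, adjusted p = 1.76e-05). Exons of Eif4e3 share 373 bases with the same-strand gene model Gm20696, so some reads may belong to either. Eif4e2, the 4EHP protein that represses translation of selected mRNAs, was at 92.9, 94.9, 91.0 and 89.7 CPM in library order, siControl first. Its log2 change was -0.06 (adjusted p = 0.247). It was called lower with library totals (-0.13, adjusted p = 0.0115) and with the exon length trend (-0.12, adjusted p = 0.0231), within a range of 0.0115 to 0.659. Eif4enif1, the transporter that carries eIF4E into the nucleus, was at 59.6, 59.5, 59.4 and 56.9 CPM (log2 change -0.03, adjusted p = 0.559). Per kb of exon, Eif4e was the highest of the 3 cap-binding genes in siControl at 20.4 CPM, above Eif4e2 at 12.5 and Eif4e3 at 12.2. In siHells Eif4e3 was highest at 16.2 CPM per kb, followed by Eif4e at 13.4 and Eif4e2 at 12.05.

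The 4E-BP repressors split. Eif4ebp2 had 176 and 173 CPM in siControl and 242 and 243 CPM in siHells, the largest rise among the members. The groups did not overlap, and the 1.39-fold rise had a log2 value of 0.47 (SE 0.033, adjusted p = 5.75e-09). Eif4ebp3 rose from 10.4 and 11.0 CPM to 14.1 and 12.003 CPM (log2 change 0.29, SE 0.099, adjusted p = 0.0190). That call was lost without siControl replicate 1 (adjusted p = 0.111), without siHells replicate 1 (0.204) and with the DESeq2 Wald test (0.0504) and library totals (0.0698), within a range of 0.000285 to 0.204 over 13 alternatives. A longer gene model on the same strand shares 501 of the 744 exon bases of Eif4ebp3, so its counts are uncertain. Eif4ebp1, the best-known member of the family, had 68.4 and 64.2 CPM in siControl and 64.6 and 59.6 CPM in siHells, and the groups overlapped. Its log2 change was -0.09 (SE 0.052, adjusted p = 0.134), and it was called lower with library totals (-0.17, adjusted p = 0.0129) and without siHells replicate 1 (-0.15, adjusted p = 0.0142), within a range of 0.0129 to 0.612.

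Set against each other, repressor and target moved apart. The ratio of Eif4ebp2 to Eif4e, each scaled to exon length, was 1.47 and 1.48 in siControl and 3.22 and 3.05 in siHells, 2.12 times higher on average. This pair was chosen after the values of both genes were seen. With Eif4ebp1 added to Eif4ebp2 the ratio was 2.98 and 2.92 against 5.49 and 5.01. Eif4ebp1 and Eif4ebp2 were level per kb of exon in siControl (30.2 CPM each), whereas in siHells they stood at 28.3 and 41.9. These ratios are descriptions: an exact test of 2 libraries against 2 cannot go below p = 0.33. They are mRNA ratios and say nothing of the phosphorylation that controls 4E-BP proteins.

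**Figure D2:**
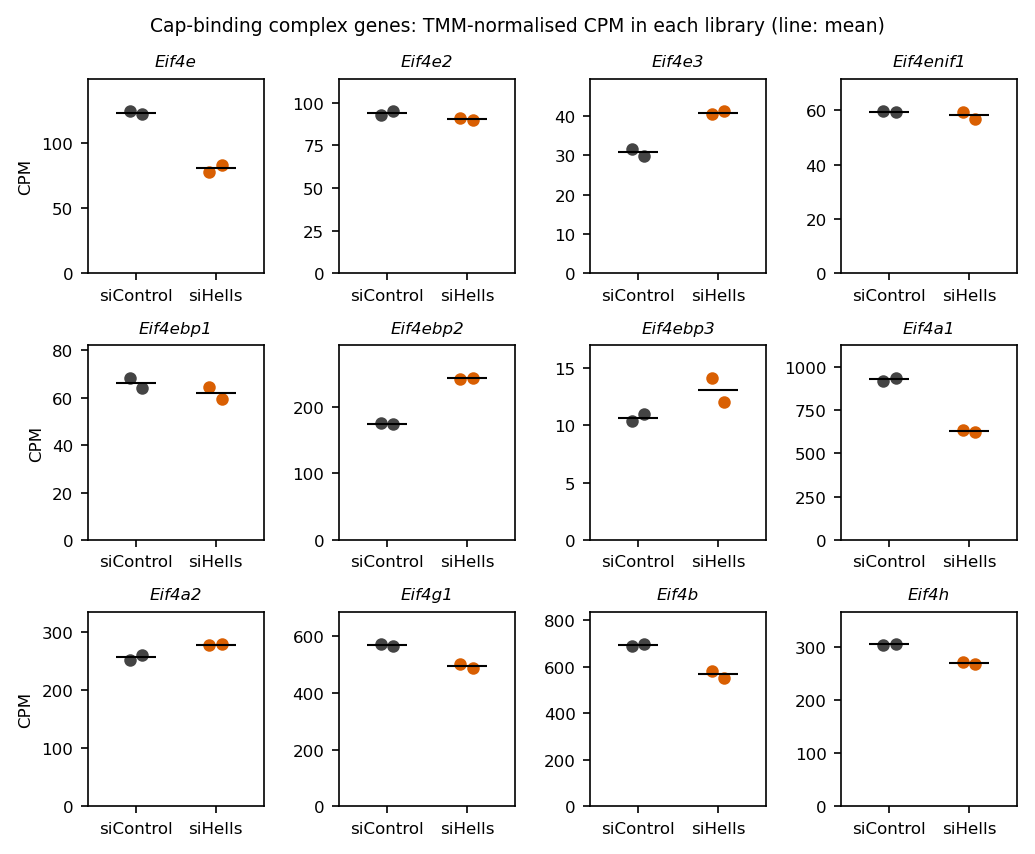
TMM-normalised CPM in each library for 12 genes of the cap-binding complex and its repressors, 1 point per library with the group mean as a line and each axis starting at 0. Eif4e and Eif4a1 sit lower in both siHells libraries, Eif4ebp2 and Eif4e3 sit higher, and Eif4ebp1 overlaps.

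The helicase genes divided in the same way between close paralogs. Eif4a1, the main RNA helicase of the complex, was at 922 and 937 CPM in siControl and at 637 and 626 CPM in siHells. It fell 1.47-fold, with means of 929 ± 10.9 and 632 ± 7.39 CPM (± SD, 2 libraries a group; log2 change -0.56, SE 0.027, adjusted p = 8.20e-11). Eif4a2, its near twin, was at 253 and 260 CPM in siControl and 279 CPM in each siHells library. That is a rise of 1.09-fold (log2 change 0.12, adjusted p = 0.00418), which was lost with library totals (0.05, adjusted p = 0.204) and without siControl replicate 1 (0.09, adjusted p = 0.100), within a range of 0.00156 to 0.204. Scaled to length, Eif4a2 mRNA was 0.223 and 0.225 of Eif4a1 in siControl and 0.355 and 0.362 in siHells. Eif4a1 lies at chr11:69666936-69672423, minus strand. Reads could be split between these 2 similar genes, and 194 exon bases of Eif4a2 lie opposite exons of Rfc4.

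Cofactors of the helicase followed Eif4a1 downward. Eif4b, which stimulates unwinding, fell 1.22-fold, from 690 and 696 CPM to 583 and 554 CPM (adjusted p = 8.63e-07). Eif4h, a smaller protein with a related RNA-binding domain, fell 1.13-fold, from 304 CPM in each siControl library to 272 and 268 CPM. Eif4a3, a relative that works in the exon junction complex rather than in initiation, had a log2 change of -0.09 (adjusted p = 0.0780). It was called lower with upper-quartile scaling (-0.13, adjusted p = 0.0204) and with library totals (-0.17, adjusted p = 0.00405), within a range of 0.00405 to 0.553. Among the scaffolds, Eif4g2, which lacks the eIF4E-binding site, fell 1.18-fold from 873 and 899 CPM to 744 and 757 CPM. Eif4g1, the principal scaffold, fell 1.15-fold from 570 and 565 CPM to 500 and 487 CPM. Eif4g3 had 183, 176, 187 and 181 CPM and its groups overlapped (log2 change 0.03, adjusted p = 0.448).

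**Figure D3:**
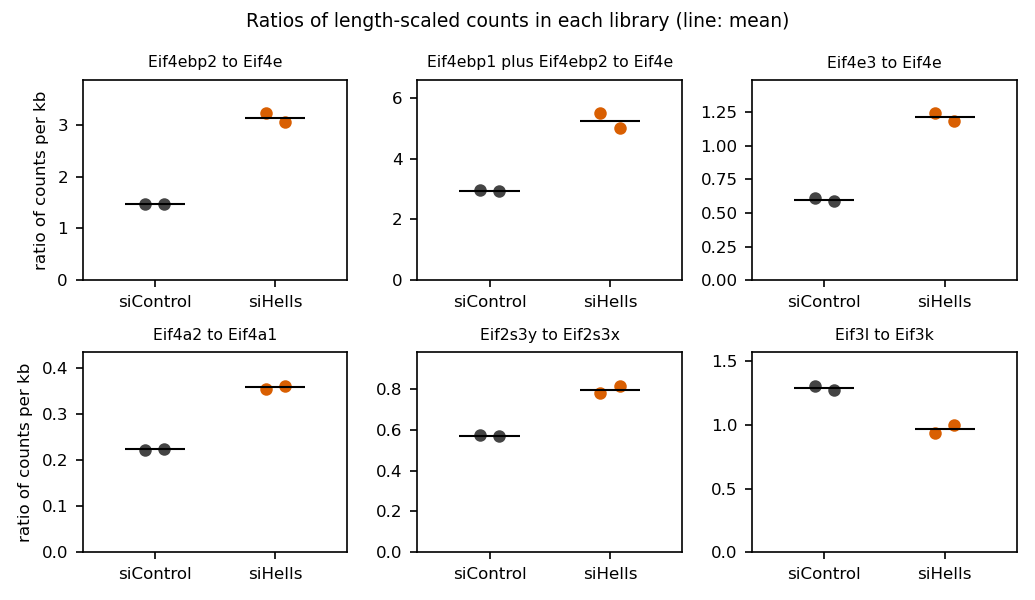
Ratios of length-scaled counts in each of the 4 libraries, 1 point per library with the group mean as a line. The ratio of Eif4ebp2 to Eif4e moves from 1.48 to 3.13 and that of Eif4a2 to Eif4a1 from 0.224 to 0.358 on average, and the groups do not overlap in any of the 6 panels.

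The start regions of 43 members were available as RefSeq windows of GRCm38.p6, 250 bases before to 50 after each start, and some genes had several. The E-box CACGTG, the site read by Myc, Mitf, Tfeb and other factors of their class, was searched because Myc-type control of Eif4e and Eif4a1 is textbook knowledge. It reads the same on both strands. It was present in 10 of the 43 members (23.3%), against 11.3% of the 11698 genes of the table with a window. Of the 10, 9 fell and the other, Eif5a2, was not called. Of the 33 members without it, 17 fell and 6 rose. These counts were chosen after the values were seen, and Eif4e and Eif4a1 are themselves among the 10. Control by factors that read the site was thus not tested. Over all tested genes with a window, 34.5% of the 1289 with the letters fell and 29.2% rose, against 29.4% and 31.6% of the 9970 without them. Among the members, the median log2 change was -0.20 with the letters and -0.13 without, a description made after both had been seen. Over all tested genes with a window the medians were -0.02 and 0.02. The letters are shown for Eif4e, Eif4a1 and Eif5a because these were the 3 largest falls among the members that held them. Capitals mark the E-box, and each run is written along the gene's own strand. The Eif4e runs, at chr3:138527028-138527057 and chr3:138527192-138527221, overlap an annotated exon. The others lie outside exons, at chr11:69672585-69672634 for Eif4a1 and chr11:69921433-69921482 for Eif5a.
Eif4e, first: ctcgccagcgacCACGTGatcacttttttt
Eif4e, second: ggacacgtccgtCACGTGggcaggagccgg
Eif4a1: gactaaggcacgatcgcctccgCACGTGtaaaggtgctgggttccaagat
Eif5a: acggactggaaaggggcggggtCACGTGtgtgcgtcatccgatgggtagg

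In the complex that delivers the initiator tRNA, the core subunits fell and the Y-linked copy rose. Eif2s1, which encodes the alpha subunit that stress kinases phosphorylate, was at 149 and 151 CPM in siControl and 113 and 110 CPM in siHells. It fell 1.34-fold (log2 change -0.43, SE 0.037, adjusted p = 8.06e-08). Eif2s2, the beta subunit, fell 1.14-fold, from 175 and 181 CPM to 161 and 152 CPM (adjusted p = 0.000616). Of 2 proteins that can deliver tRNA without eIF2, Eif2a fell 1.09-fold and Eif2d had a log2 change of -0.04 (adjusted p = 0.615). Eif2a lost its call without siControl replicate 1 (adjusted p = 0.0945) and without siControl replicate 2 (0.0591), within a range of 0.000609 to 0.0945.

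The gamma subunit has an X-linked and a Y-linked gene in mice. Eif2s3x was at 140 and 143 CPM in siControl and 118 and 114 CPM in siHells, a 1.22-fold fall (log2 change -0.29, adjusted p = 7.16e-06). Eif2s3y was at 87.7 and 88.8 CPM in siControl and 99.7 and 101.2 CPM in siHells, a 1.14-fold rise (log2 change 0.19, adjusted p = 0.000796). Both calls held under all 13 alternatives. Scaled to length, the Y copy was 0.572 and 0.570 of the X copy in siControl and 0.776 and 0.815 in siHells. Their CPM summed to 228 and 232 in siControl and to 217 and 215 in siHells. The genes are highly similar, so reads may be split between them.

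For eIF2B, the exchange factor that recharges eIF2 with GTP, the mRNAs of all 5 subunit genes were lower, with no overlap between groups. Over all genes 29.5% fell, or 36.2% among the more abundant genes, and 39.4% had both siHells libraries below both siControl libraries. Eif2b3, the gamma subunit, was at 22.9 and 21.2 CPM in siControl and 14.6 and 14.3 CPM in siHells, a 1.53-fold fall (log2 change -0.61, SE 0.076, adjusted p = 5.04e-06). Eif2b1, the regulatory alpha subunit, fell 1.32-fold from 32.7 and 32.0 CPM to 25.1 and 24.0 CPM. Eif2b2, Eif2b4 and Eif2b5 fell by 0.21, 0.19 and 0.18 on the log2 scale. Eif2b4 was lost in 5 of 13 alternatives: without siControl replicate 1 (adjusted p = 0.0540), without siControl replicate 2 (0.138), without siHells replicate 2 (0.252), with DESeq2 (0.0836) and with the exon length trend (0.0595), within a range of 0.00367 to 0.252. Eif2b5 was lost without siControl replicate 2 (-0.08, adjusted p = 0.324, within a range of 0.00142 to 0.324).

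The 4 eIF2 kinases sense different stresses. Eif2ak2, the interferon-inducible double-stranded RNA sensor PKR, was at 105 and 104 CPM in siControl and 129 and 131 CPM in siHells. It rose 1.25-fold (log2 change 0.32, SE 0.037, adjusted p = 2.80e-06), and the call held under all 13 alternatives. Eif2ak1, the heme-regulated kinase HRI, was at 102 and 103 CPM in siControl and 114 and 109 CPM in siHells. Its rise of 1.09-fold (log2 change 0.12, adjusted p = 0.0180) was lost in 6 of 13 alternatives: without siControl replicate 1 (0.126), siControl replicate 2 (0.0635) or siHells replicate 1 (0.0744), with upper-quartile scaling (0.0768), with library totals (0.339) and with the exon length trend (0.0844). The range was 0.00205 to 0.339. Eif2ak1 also shares 487 exon bases with Aimp2 on the opposite strand.

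The other kinases were not called. Eif2ak3, the endoplasmic reticulum sensor PERK, was at 51.4, 52.7, 46.0 and 51.0 CPM, siControl first (log2 change -0.10, adjusted p = 0.132). It was called lower with library totals (-0.18, adjusted p = 0.0151), with the exon length trend (-0.14, adjusted p = 0.0365) and without siHells replicate 2 (-0.18, adjusted p = 0.00933), within a range of 0.00933 to 0.727. Eif2ak4, the amino acid sensor GCN2, was at 30.5, 27.9, 27.2 and 29.4 CPM and the groups overlapped (log2 change -0.05, adjusted p = 0.558).

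The start region of Eif2ak2 is shown because interferon induction of this gene is known to run through such a site. The letters GAAANNGAAA, the core of an interferon-stimulated response element, were searched on both strands. They were found in 4 of 43 members (9.3%), namely Eif2ak2, Eif2s1, Eif2s3x and Eif3a, against 4.0% of genes with a window. Of these only Eif2ak2 rose, whereas Eif2s1, Eif2s3x and Eif3a fell (log2 changes -0.43, -0.29 and -0.21). A role of the site here was not tested. The letters TGATGNAA, the core of a CEBP-ATF element, were also searched on both strands. They were found in 1 of 43 members (2.3%), Eif2s3x, against 3.0% of genes with a window. In Eif2ak2 the GAAANNGAAA match begins at position 19 counted from the RefSeq start, at chr17:78882535-78882564, minus strand, with the matched letters in capitals.
Eif2ak2: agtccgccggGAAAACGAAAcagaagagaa

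**Figure D4:**
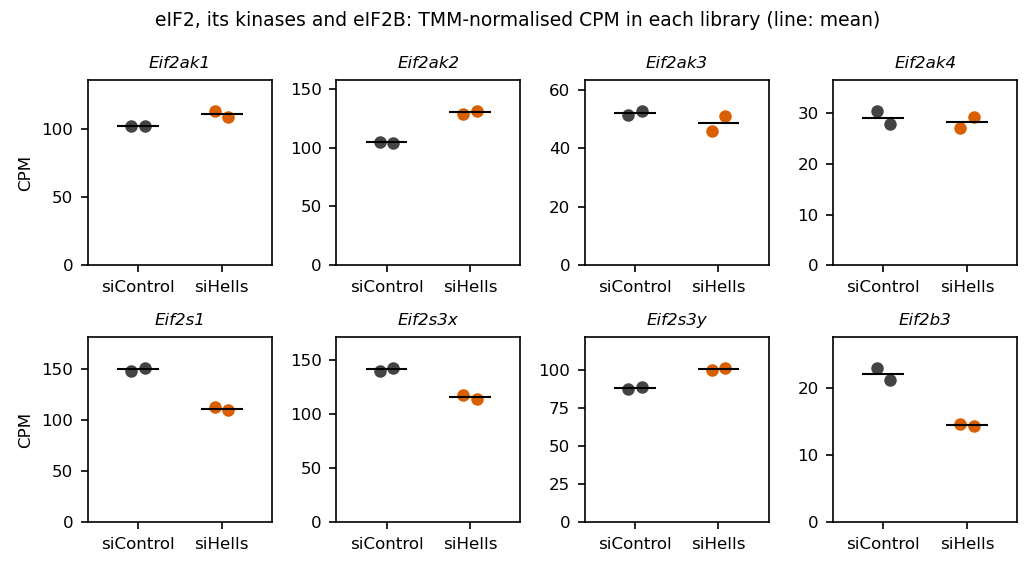
TMM-normalised CPM in each library for the 4 eIF2 kinases, 3 eIF2 subunit genes and Eif2b3, 1 point per library with the group mean as a line and each axis starting at 0. Eif2ak2 and Eif2s3y are higher in both siHells libraries, whereas Eif2s1, Eif2s3x and Eif2b3 are lower.

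eIF3, the largest initiation complex, was lower in most of its subunits. Of 14 genes 11 fell and none rose, with a median log2 change of -0.16, where 29.5% of all genes fell and 29.0% rose. The count of rises was also 0 at an unadjusted p under 0.05 with edgeR, and 0 after adjustment with DESeq2 and with limma voom. Eif3l stood apart at 210 and 206 CPM in siControl and 141 and 142 CPM in siHells. It fell 1.47-fold (log2 change -0.55, SE 0.034, adjusted p = 1.47e-09). The next largest falls were Eif3g (1.22-fold, from 76.5 and 76.0 CPM to 66.0 and 58.7 CPM), Eif3b (1.21-fold, from 226 and 231 CPM to 191 and 186 CPM) and Eif3i (1.2-fold, from 108 and 110 CPM to 92.4 and 89.0 CPM). These 3 encode the module of eIF3 that lies near the mRNA channel and takes part in scanning.

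The rest of eIF3 changed by less. Eif3a, the scaffold of the complex, fell by 0.21 on the log2 scale, and Eif3h, Eif3m, Eif3c and Eif3k fell by 0.18, 0.16, 0.15 and 0.14. Eif3k, which binds Eif3l directly in the complex, went from 119 and 120 CPM to 112 and 105 CPM, and the length-scaled ratio of Eif3l to Eif3k fell from 1.31 and 1.27 to 0.935 and 1.001. The call of Eif3k was lost without siControl replicate 2 (adjusted p = 0.0773) and without siHells replicate 2 (0.0715), within a range of 0.000274 to 0.0773. Eif3f had a log2 change of -0.08 and an adjusted p = 0.0471, close to the threshold, and was lost in 7 of 13 alternatives, among them those without siControl replicate 1 (0.0861), siControl replicate 2 (0.266) and siHells replicate 2 (0.262), within a range of 0.00101 to 0.266.

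Eif3d, which can itself bind the cap of some mRNAs, was at 141, 147, 144 and 141 CPM and its groups overlapped (log2 change -0.01, adjusted p = 0.751). With library totals it was called lower (-0.09, adjusted p = 0.0493, within a range of 0.0493 to 0.987). Eif3e had a log2 change of -0.06 (adjusted p = 0.167) and was called lower with upper-quartile scaling (-0.09, adjusted p = 0.0317), with library totals (-0.13, adjusted p = 0.00395) and with the exon length trend (-0.11, adjusted p = 0.0173), within a range of 0.00395 to 0.811. The loosely bound subunit eIF3j has 2 similar genes, so reads may be split. Eif3j1 fell by 0.16, though not without siControl replicate 1 (adjusted p = 0.0631, within a range of 0.000442 to 0.0631), and Eif3j2 had a log2 change of -0.03 (adjusted p = 0.803). Eif3j1 shares 1107 exon bases with Spg11 on the opposite strand.

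Of 7 genes for start codon selection and subunit joining, 4 fell and 1 rose, with a median log2 change of -0.19. Among all genes 29.5% fell and 29.0% rose. The 2 genes for eIF1A both fell: Eif1ax went from 72.2 and 77.7 CPM to 55.4 and 58.9 CPM (1.31-fold, log2 change -0.39, adjusted p = 8.58e-06), and Eif1a from 105 and 112 CPM to 86.6 and 98.1 CPM (1.18-fold). Eif1, which guards the stringency of start codon choice, rose 1.08-fold, from 214 and 223 CPM to 239 and 233 CPM (log2 change 0.11, adjusted p = 0.0139). Its paralog Eif1b fell 1.14-fold and Eif1ad, a nuclear protein with an eIF1A-like domain, 1.22-fold. Eif5, the GTPase activator of eIF2, and Eif5b, which joins the large subunit, had log2 changes of -0.05 and 0.05 (adjusted p = 0.309 and 0.187). Eif5 was called lower with library totals (-0.12, adjusted p = 0.0111) and with the exon length trend (-0.10, adjusted p = 0.0324), within a range of 0.0111 to 0.986. Eif5b shares 1643 exon bases with Rev1 on the opposite strand.

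Some of these calls rested on 1 library or on the scaling. Eif1 was lost without siControl replicate 1 (adjusted p = 0.238), with upper-quartile scaling (0.0657) and with library totals (0.391), within a range of 0.00139 to 0.391. Eif1a was lost without siControl replicate 2 (adjusted p = 0.0586, within a range of 2.61e-08 to 0.0586). Eif1b was lost without siControl replicate 1 (0.0879) and with the exon length trend (0.834), within a range of 0.000823 to 0.834.

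Eif5a, known for helping ribosomes through stalling sequences and for its hypusine modification, was the member most expressed per length. It was at 544 and 536 CPM in siControl and 394 and 379 CPM in siHells, a 1.40-fold fall (log2 change -0.48, SE 0.030, adjusted p = 1.94e-09). The enzymes that make hypusine fell beside it: Dhps 1.48-fold and Dohh 1.18-fold (adjusted p = 0.00914 for Dohh). Eif5a2, the minor isoform, was at 12.8, 11.8, 11.5 and 13.5 CPM with overlapping groups (log2 change 0.02, adjusted p = 0.848). Eif6, which keeps free large subunits from joining small ones, fell 1.18-fold, from 92.4 and 90.3 CPM to 78.3 and 76.6 CPM. The gene Eif5a lies at chr11:69916714-69921958, minus strand.

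Of the 5 pseudogenes only Eif4a-ps4 was called, falling 1.65-fold from 29.9 and 26.0 CPM to 16.8 and 17.0 CPM (log2 change -0.73, SE 0.078, adjusted p = 9.86e-07). It is a processed copy of an Eif4a gene, and reads of Eif4a1, a far more abundant mRNA, may be assigned to it. Eif3s6-ps1 and Eif1-ps1 had 8 to 16 counts per library and log2 changes of -0.41 and 0.42 (adjusted p = 0.526 and 0.492). Eif3s6-ps2, with 2, 2, 3 and 2 counts, and Eif5al3-ps, with 15, 9, 9 and 10 counts, did not pass the filter on low counts.

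Of 30 genes for poly(A) binding, scanning, recycling and auxiliary roles, 13 fell (43.3%) and 4 rose (13.3%), with a median log2 change of -0.10. The shares over all genes were 29.5% and 29.0%, or 36.2% and 34.7% among the more abundant genes. Pabpc1, the poly(A)-binding protein that closes the mRNA loop with eIF4G, fell 1.53-fold, with means of 1298 ± 14.5 and 849 ± 6.55 CPM (± SD, 2 libraries a group), and Pabpc4 1.47-fold. Bzw2, an eIF5 mimic, fell 1.6-fold and Cyfip2, which can tether eIF4E, 1.88-fold. The 4 that rose were Gigyf1 (log2 change 0.42), Paip1 (0.40), Ncbp1 (0.13) and Ddx3y (0.51). Ddx3y is the Y-linked partner of the scanning helicase Ddx3x, which fell by 0.15.

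Of 22 elongation and termination factors 14 fell (63.6%) and 3 rose (13.6%), with a median of -0.37. By comparison, 29.5% of all genes fell and 29.0% rose, or 36.2% and 34.7% of the more abundant genes. Eef1a1, which brings aminoacyl-tRNA to the ribosome, fell 1.33-fold, with means of 7527 ± 114 and 5646 ± 57.2 CPM (± SD, 2 libraries a group), Eef1g 1.45-fold, Eef2, the translocase, 1.30-fold and Eef1b2 1.35-fold. The 3 that rose were Eef2k (1.51-fold), the kinase that inactivates eEF2, the release factor gene Gspt2 (1.56-fold) and Etf1 (log2 change 0.09, adjusted p = 0.0433).

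Of 32 genes of mTORC1 and MNK signalling to the cap 10 rose (31.2%) and 8 fell (25.0%), shares near those over all genes (29.0% and 29.5%), with 13 lower when library totals replaced TMM. The rises with the smallest p were Ddit4 (37.7-fold), Deptor (1.98-fold) and Sesn2 (2.13-fold), all of which restrain mTORC1. Other restrainers were mixed: Sesn3 and Sesn1 rose 1.53-fold and 1.09-fold, and Tsc1, Tsc2, Castor1 and Akt1s1 were not called (log2 changes -0.10, -0.07, -0.20 and 0.07). Genes that activate or act for mTORC1 also rose, namely Slc38a9 (1.28-fold), Lamtor4 (1.17-fold) and Rps6kb2 (1.22-fold). Mknk1, a kinase that phosphorylates eIF4E, rose 1.44-fold, with means of 77.0 ± 0.582 and 111 ± 2.79 CPM (± SD, 2 libraries a group). Rptor, the substrate-binding subunit of mTORC1 that recruits 4E-BP, rose 1.23-fold, whereas Mtor had a log2 change of -0.04 and Rps6kb1 of 0.01, neither called. The 8 that fell were Rps6 (1.41-fold), Rragd (1.51-fold), Rragc (1.16-fold), Larp1 (1.15-fold), Lamtor3 (1.17-fold), Lamtor5 (1.17-fold), Rragb (2.05-fold) and Lamtor2 (1.09-fold).

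Of 32 targets and regulators of the eIF2 stress branch 15 rose (46.9%) and 10 fell (31.2%), against 29.0% and 29.5% over all genes, with a median of 0.20. Apart from Ddit4, which is on both lists, the rises with the smallest p were Vldlr (3.18-fold), Cebpg (1.87-fold) and Atf5 (2.19-fold). Trib3 rose 2.04-fold, Ddit3, which encodes CHOP, 1.22-fold (adjusted p = 0.00258) and Ppp1r15b, the constitutive eIF2 phosphatase subunit, 1.29-fold. Atf4, the transcription factor at the centre of the branch, fell 1.2-fold. The others that fell were Atf3 (2.26-fold), the folate enzymes Mthfd2 (1.52-fold) and Shmt2 (1.30-fold), Asns (1.18-fold), the tRNA synthetases Gars (1.39-fold), Aars (1.15-fold), Sars (1.10-fold) and Wars (1.10-fold), and Gcn1 (1.13-fold), the activator of GCN2. Of the other 2 synthetases tested, Nars rose 1.13-fold (adjusted p = 0.000159) and Cars had a log2 change of -0.14 (adjusted p = 0.0519). Ppp1r15a, the stress-inducible phosphatase subunit, had a log2 change of 0.05 and was not called.

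**Figure D5:**
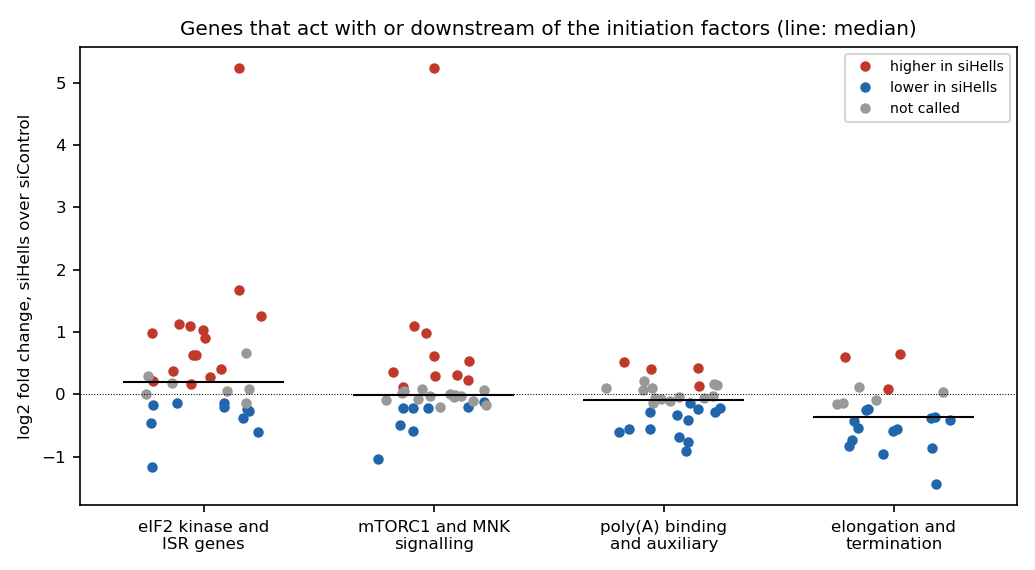
Log2 fold change, siHells over siControl, of genes on 4 lists that act with or downstream of the initiation factors, 1 point per gene (red higher, blue lower, grey not called) with the median as a line. The median is 0.20 for the stress branch and -0.37 for elongation and termination; Ddit4, on 2 lists, is the isolated point at 5.24.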

How the data were processed

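The deposited table holds the authors' unnormalised whole-number counts for each gene symbol, 1 column a library, and the 4 column names matched the sample labels. Tools listed in the submitters' processing notes are FastQC, Trimmomatic 0.38, HISAT2 2.1.0, StringTie 2.1.3b, edgeR and the build mm10, with no roles. For the annotation release and strand setting nothing is given in these sources, and per the labels' protocols 2 library kits are named, of which 1 is stranded. Of the members, 14 share exon bases with a gene on the opposite strand (9 with a protein-coding one), so their reads are uncertain. The table held 0 values of 0: its lowest count was 1, so genes with 0 reads in a library were not analysed here.

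The members and gene lists were chosen with earlier results of these data known. Genes were kept by filterByExpr in edgeR 4.0.16 (R 4.3.3; minimum count 10, which is 0.188 CPM at the mean depth, and minimum total 15), scaled by TMM, and tested with the robust quasi-likelihood fit on group alone (2 residual degrees of freedom; biological coefficient of variation 0.0418). CPM are TMM-normalised, with mean ± SD over 2 libraries, except for the summed marker levels, which are scaled to library totals alone. Sampling noise did not account for the difference between libraries within a group (chi-square per gene 3.59 in siControl and 6.69 in siHells). Alternatives were other scalings, filters and tests (DESeq2 1.42.0, limma 3.58.1), the replicate block, each library left out in turn, a stricter threshold and, added after seeing the data, a lowess trend on exon length. When counts were simulated for siHells against siControl (15649 genes), the fit recovered 61.2% of 1.2-fold, 98.0% of 1.5-fold, 91.5% of 2-fold and 100% of 4-fold changes. There only a small random set of genes of any level was changed, and all genes had the common dispersion. In the real data far more genes differed and the members are mostly abundant, so these rates are not those of the members.

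Values are given in every library for the eIF2 kinases, the eIF4E family and its repressors, the 6 largest rises and falls and the largest of each role. Members not called are named with their values. From each list up to 4 genes with the smallest p and the called genes against its majority are named. Others named, the E-box counts and the ratios to Eif4e, Eif4ebp1 and Eif3k were chosen after their values were seen. All 59 members matched RefSeq and GENCODE M21, from which coordinates (GRCm38) and exon lengths were taken. Promoter letters are from RefSeq.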

Additional observations from a re-analysis of the deposited data

How the results depend on the processing

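No called member changed sign under any of the 13 alternatives run, and 29 of 41 calls held under all of them, or 34 of 41 when only the alternatives with all 4 libraries are counted. The count of higher members was 8, and was 4 with library totals, 5 at an adjusted p threshold of 0.01 and 4 to 8 when 1 library was left out, the lowest without siControl replicate 1. The count of lower members was 33 and stayed within 1.5 times of that, from 27 to 40. Against a 1.5-fold change 0 members were lower, but 1 was with upper-quartile scaling, 2 were with library totals, and 0 to 1 were when 1 library was left out (1 without siControl replicate 2). The median log2 fold change of -0.16 became -0.24 with library totals, where the median of all genes was -0.08. In mTORC1 and MNK signalling 13 rather than 8 genes were lower with library totals. The cause of these shifts was not tested. A replicate block gave 8 higher and 32 lower members, losing only Eif3f. The replicate numbers are not said to pair libraries, and the correlation of their deviations for replicate 1 was 0.05. When a library was left out, its group had 1 sample, assumed to vary like the other group. Some falls under 1.2-fold, such as those of Eif3f and Eif2b4, are near what 2 libraries a group can resolve. Others of that size, such as those of Eif4g1 and Eif4g2, held under all 13 alternatives.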

Other observations

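Since the X-linked and Y-linked eIF2 gamma genes moved in opposite directions, the other X and Y gene pairs in the table were looked up, after the values of that pair had been seen. The Y-linked members rose in all 4 pairs present, the Eif2s3 pair that prompted the search among them. Over all genes 29.0% rose, or 34.7% among the more abundant genes. Uty was at 40.7 and 41.1 CPM in siControl and 58.1 and 63.1 CPM in siHells (log2 fold change 0.57, SE 0.054, adjusted p = 2.36e-07). Kdm5d was at 41.1 and 38.1 CPM and at 47.8 and 49.4 CPM (0.30, adjusted p = 0.000276), and Ddx3y at 67.2 and 68.7 CPM and at 85.7 and 107.9 CPM (0.51, adjusted p = 0.0311). Eif2s3y had a log2 fold change of 0.19. Their X-linked partners did not share a direction: Eif2s3x, Ddx3x and Kdm5c fell by 0.29, 0.15 and 0.10 on the log2 scale, and Kdm6a, the partner of Uty, rose by 0.28 (adjusted p = 0.000187). No test of the Y-linked genes as a set was made.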
